A study of Mus musculus with 11 samples.

Results

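The early B cell factors Ebf1, Ebf2 and Ebf3 were examined for binding of the transcription factors Runx3 and Brn3a in mouse sensory neurons. They are 3 of the 21911 protein-coding genes whose regulatory domains were compared. The genes were chosen by name, and their peaks were those whose centre lay in the gene's domain. A domain reached from 5 kb upstream to 1 kb downstream of the transcription start site (TSS) and was extended on both sides to the same window of the neighbouring protein-coding gene, by at most 1 Mb. The domains of the 3 Ebf genes held 172 of the 58770 peaks of the Runx3 and Brn3a lists.

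The libraries came from dorsal root ganglia (DRG) of E12.5 embryos that expressed GFP from the BacE-GFP transgene (Runx3-BAC-GFP-CB6 transgenic mice). The transgene carries Runx3 sequence in all of them, so the Runx3 locus is present in extra copies. GFP-positive TrkC proprioceptive neurons were sorted, and 300000 to 600000 cells went into each CUT&RUN, in which an antibody directs micrococcal nuclease to the DNA around its target. Of the 11 libraries, 3 were made with a Runx3 antibody, 4 with one to Brn3a, 3 with one to H3K27Ac and 1 with Normal Rabbit Serum (NRS). No genotype or treatment was varied. The sources used here do not say whether libraries of 1 antibody came from separate litters.

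The Runx3 and Brn3a results were lists of consensus peaks, each found in at least 2 of the 3 Runx3 or 2 of the 4 Brn3a libraries. The Runx3 list held 25883 nuclear peaks and the Brn3a list 32887. Neither list carried a peak height or a value per library, so the depth is unknown, no spread between replicates could be given and no difference was tested. Shares are given with Wilson 95% intervals, which cover counting error only, and neighbouring peaks of a locus are not replicates. The genes that mark TrkC neurons all had peaks in their domains: Runx3, Ntrk3, Pou4f1 (which encodes Brn3a), Isl1 and Etv1 each had at least 1 co-bound region. Of the 13 marker genes of glia, endothelium, blood and mesenchyme, 6 had one, against 31.9% of all protein-coding genes. Markers of other cell types were thus not poorer in co-bound regions than genes at large. Those 6 had domains of 414 kb (Foxd3) to 1093 kb (Ptprc), against a median of 89.7 kb over all genes. Domains of the TrkC markers ran from 340 to 1961 kb. Peaks centred within 1000 bp of a TSS went the other way. Of the 13 genes, 2 had such a Runx3-list peak and 1 such a Brn3a-list peak, against 36.0% and 20.6% of all genes. For each list it was 3 of the 5 TrkC markers. Binding is no measure of expression, so these counts do not settle the cell type.

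Ebf proteins bind DNA as dimers through a zinc-containing domain of their own kind, next to a helix-loop-helix region, and recognise a palindrome of the form CCCNNGGG. Ebf1 is known for committing progenitors to the B lymphocyte lineage, Ebf2 for the identity of brown adipocytes, and all 3 genes are active in differentiating neurons. Runx3, a runt-domain factor, and Brn3a, a POU homeodomain factor, both act in the development of TrkC sensory neurons.

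Shown first are 6 of the 172 peaks, chosen because words of both factors lay in 1 peak. They were read from the GRCm38 reference genome on its plus strand, and lie outside the annotated exons of coding and noncoding genes. Capitals mark the RUNX words TGCGGC with its variant TGCGGT, then TGTGGC with its variant TGTGGT, and the Brn3-type words TTAATGA as well as ATTAAT, each on either strand. ATTAAT can overlap TTAATGA, and merged capitals then show both. The first is the Brn3a-list peak at the Ebf1 promoter, which overlapped a Runx3-list peak. The remaining 5 are the peaks nearest an Ebf TSS, of at most 300 bp and outside exons, that held words of both factors without overlap of the other list. An Ebf2 peak with such words, 71.728 kb from the TSS, lies in an exon of the antisense gene Gm6878 and is not printed.
Ebf1 promoter, chr11:44617148-44617316: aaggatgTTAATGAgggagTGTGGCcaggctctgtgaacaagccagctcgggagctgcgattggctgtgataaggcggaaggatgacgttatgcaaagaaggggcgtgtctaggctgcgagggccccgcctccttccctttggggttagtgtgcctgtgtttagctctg
Ebf3 intron 7, Brn3a list, chr7:137251366-137251558: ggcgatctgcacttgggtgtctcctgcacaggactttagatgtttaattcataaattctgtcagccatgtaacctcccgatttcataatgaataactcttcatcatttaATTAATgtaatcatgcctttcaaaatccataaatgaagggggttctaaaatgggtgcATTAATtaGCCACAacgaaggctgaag
Rnf145 body upstream of Ebf1, Brn3a list, chr11:44544225-44544507: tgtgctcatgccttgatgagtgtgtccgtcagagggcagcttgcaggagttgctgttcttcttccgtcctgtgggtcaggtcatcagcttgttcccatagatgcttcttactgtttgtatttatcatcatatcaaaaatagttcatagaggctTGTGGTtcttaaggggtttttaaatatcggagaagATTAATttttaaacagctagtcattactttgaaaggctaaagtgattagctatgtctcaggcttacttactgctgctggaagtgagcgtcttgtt
Ebf1 intron 6, Brn3a list, chr11:44767008-44767223: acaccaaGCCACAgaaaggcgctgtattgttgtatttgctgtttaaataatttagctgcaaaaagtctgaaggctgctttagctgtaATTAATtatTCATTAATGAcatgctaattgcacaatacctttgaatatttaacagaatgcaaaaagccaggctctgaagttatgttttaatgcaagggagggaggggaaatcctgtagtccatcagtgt
Ebf1 intron 8, Brn3a list, chr11:44895070-44895216: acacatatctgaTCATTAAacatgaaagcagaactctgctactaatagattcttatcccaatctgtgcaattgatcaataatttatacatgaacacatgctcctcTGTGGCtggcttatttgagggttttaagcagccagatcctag
Ebf1 intron 10, Runx3 list, chr11:44966051-44966307: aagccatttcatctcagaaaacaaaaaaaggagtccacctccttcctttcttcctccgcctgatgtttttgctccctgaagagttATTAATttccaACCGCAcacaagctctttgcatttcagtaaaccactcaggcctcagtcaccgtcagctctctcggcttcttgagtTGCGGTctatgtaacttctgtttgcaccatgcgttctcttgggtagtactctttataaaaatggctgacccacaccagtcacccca

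All 3 Ebf promoters were bound by both factors in the same place. A promoter peak had its centre within 1000 bp of a protein-coding TSS of the gene. Over all protein-coding genes, 36.0% had a Runx3-list promoter peak, 20.6% a Brn3a-list promoter peak and 14.7% both. Each of the 3 genes also had at least 1 co-bound region in its domain, as did 31.9% of all genes. A co-bound region joins Runx3-list and Brn3a-list peaks that share at least 1 bp. In the co-bound promoter regions, the Ebf2 Runx3-list peak was 82 bp wide, below that list's median of 176 bp. The Ebf1 Brn3a-list peak was 169 bp, just below that list's median of 171 bp. Among peaks at least as wide as the medians, these 2 promoters would therefore not count as co-bound.

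The 3 promoter regions differed in the words they held. At Ebf1 the co-bound region spanned 44617134 to 44617340 on chromosome 11, with its centre 80 bp upstream of the TSS, and held 2 RUNX binding sites (RBS) and the Brn3 motif V$BRNF in the deposited columns. Among the 3 promoter regions it alone held a RUNX word, and it held a TTAATGA. The printed Brn3a-list peak contains that TTAATGA and 1 of the RUNX words.

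At Ebf2 the region lay at 67233217 to 67233522 on chromosome 14, centred 77 bp downstream of the TSS in the untranslated part of exon 1. It held neither an RBS nor V$BRNF. A separate Runx3-list peak with 1 RBS lay in intron 1, 1.298 kb downstream of the first TSS (67234476 to 67234704), close to another of the 3 annotated Ebf2 start sites.

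At Ebf3, which is read from the minus strand, the region spanned the TSS at 137314369 to 137314642 on chromosome 7. It held no RBS and no V$BRNF, but had 1 EBF-type word CCCNNGGG. A Brn3a-list peak without V$BRNF lay at an internal Ebf3 start site in intron 7, 46.823 kb downstream of the first one. The 250 bases upstream of the Ebf3 start in RefSeq (GRCm38.p6, minus strand, 80.0% G and C) are shown, with CCCNNGGG in capitals, because the co-bound region covers most of them. This sequence was chosen after its values were seen.
Ebf3 promoter, chr7:137314446-137314695: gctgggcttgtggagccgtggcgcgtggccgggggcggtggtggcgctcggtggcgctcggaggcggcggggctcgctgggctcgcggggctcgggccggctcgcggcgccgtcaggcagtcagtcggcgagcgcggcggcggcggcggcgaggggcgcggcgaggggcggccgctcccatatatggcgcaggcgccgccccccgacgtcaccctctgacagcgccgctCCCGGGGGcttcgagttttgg

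A word CCCNNGGG lay in the corresponding 250 bases of 11.8% of 32851 RefSeq promoters, a RUNX word in 38.0%, TTAATGA in 2.88% and ATTAAT in 4.39%. The Ebf3 window thus held a word that about 1 in 10 promoters hold, and none of the others.

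Beyond the promoters, the domains were filled mainly by Brn3a. The Ebf1 domain of 1097 kb contained 26 peaks of the Runx3 list and 62 of the Brn3a list, that of Ebf2 (633 kb) 13 and 32, and that of Ebf3 (514 kb) 8 and 31. The median protein-coding gene had 1 peak of each list in 89.7 kb. The counts depended on how far the domain reached: with at most 100 kb, Brn3a-list peaks numbered 10, 15 and 18, and with domains ended at genes of any type, noncoding ones included, 2, 2 and 16. Longer domains can hold more peaks, so the counts were also set against length.

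Per Mb of domain, Brn3a-list peaks were at 56.5 for Ebf1, 50.5 for Ebf2 and 60.3 for Ebf3, against a median of 6.68 over all genes. At least as many per Mb were found at 4.99%, 6.17% and 4.30% of all genes, in that order. Runx3-list peaks were at 23.7, 20.5 and 15.6 per Mb, against a median of 7.67, and 24.0%, 27.4% and 34.5% of genes had at least as many. The 3 genes therefore stood higher among all genes for Brn3a than for Runx3. High Brn3a density was not particular to them, since neighbouring genes share much of their domains. Brn3a-list peaks were at 59.6 per Mb for Cdca2, 50.7 for Mgmt and 47.6 for Clint1. The neighbours on the other side, Rnf145, Ppp2r2a and 9430038I01Rik, had 14.6, 23.3 and 17.7. Of the Ebf1 Brn3a-list peaks, 42 of 62 also lay in the Clint1 domain. It was 27 of 32 for Ebf2 and Cdca2, and 28 of 31 for Ebf3 and Mgmt. By number alone, 9 genes including Ebf1 had at least 62 Brn3a-list peaks and 12 had at least 15 co-bound regions. At least as many Brn3a-list peaks as Ebf1, Ebf2 and Ebf3 were found at 0.041%, 0.43% and 0.52% of genes. For Runx3-list peaks these shares were 0.14%, 1.68% and 5.43%, so by number the 3 genes stood high for both lists.

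**Figure D1:**
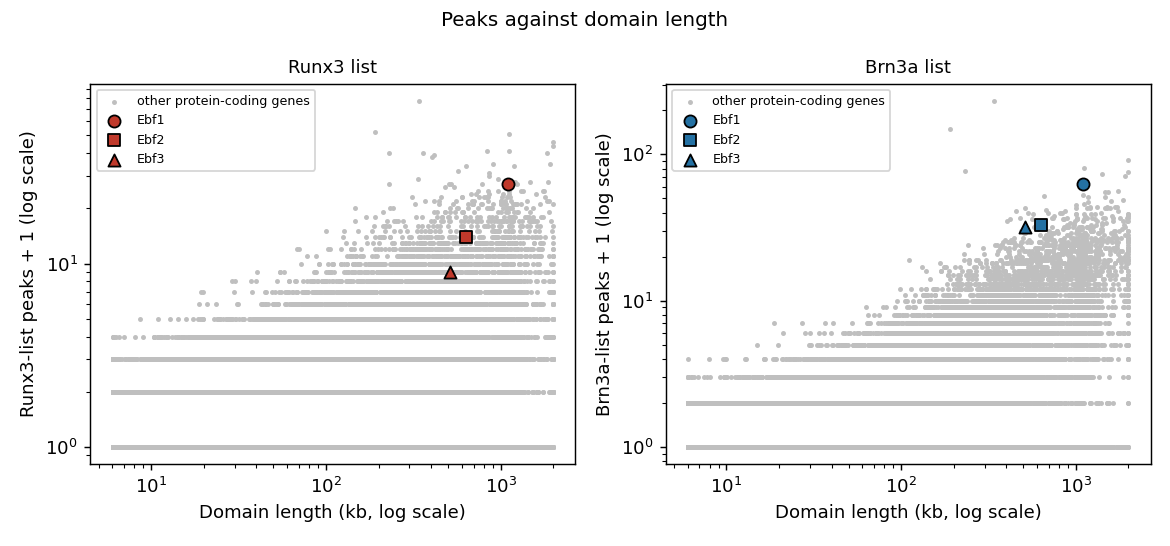
Number of Runx3-list peaks (left) and Brn3a-list peaks (right), plus 1, against domain length in kb, both on log scales. Each grey point is a protein-coding gene and the large symbols are Ebf1, Ebf2 and Ebf3, which had 62, 32 and 31 Brn3a-list peaks and sit near the upper edge of the Brn3a panel for their length.

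Merging overlapping peaks gave 146 distinct regions at the 3 genes, of which 26 were co-bound, 21 were in the Runx3 list alone and 99 in the Brn3a list alone. The co-bound regions took in 26 peaks of each list, so their share was larger in the smaller Runx3 set. Co-binding covered 26 of 47 Runx3-list peaks (55.3%, interval 41.2% to 68.6%), against 32.7% of the whole list. Of the Brn3a-list peaks it covered 26 of 125 (20.8%, 14.6% to 28.7%), against 25.6%. These shares were not adjusted for the higher density of Brn3a-list peaks in these domains, nor for peak position or width. Of the Runx3-list peaks, 10.6% at the Ebf genes and 32.9% of the list were at a promoter of any gene. Their median widths were 191 and 176 bp.

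The share of co-bound Runx3-list peaks was 57.7% at Ebf1, 46.2% at Ebf2 and 62.5% at Ebf3. Of the 21 Runx3-list peaks outside co-bound regions, 8 lay within 1000 bp of a Brn3a-list peak. The same gaps were not computed over the whole list.

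**Figure D2:**
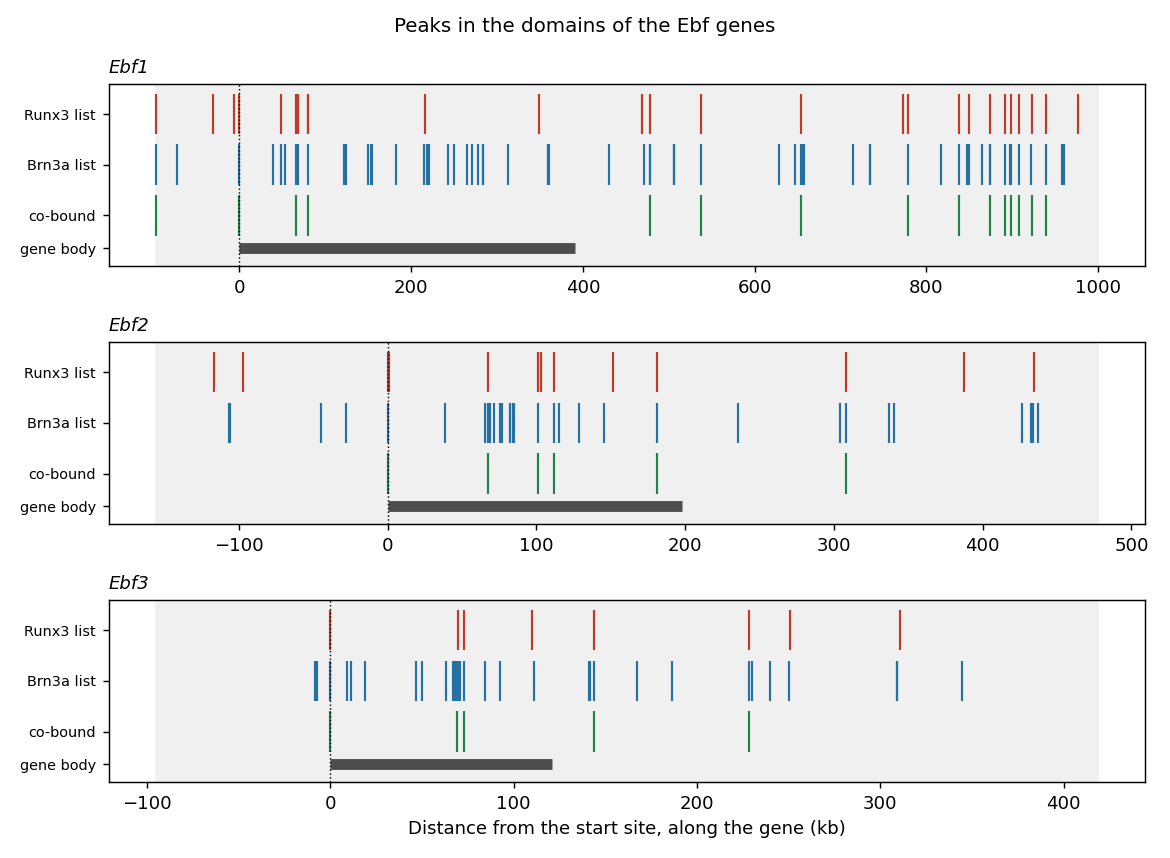
Peaks of the Runx3 list (red), of the Brn3a list (blue) and co-bound regions (green) by distance from the TSS in kb, in the direction of transcription. The shaded band is the domain and the dark bar the gene body. At Ebf1, 8 of the 15 co-bound regions lie between 779 and 940 kb downstream.

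Ebf1, the largest locus, spans 44617317 to 45008091 on chromosome 11 (plus strand, 391 kb). Within the gene lay 7 Runx3-list and 28 Brn3a-list peaks, all in introns. Intron 6, which makes up 57.7% of the gene (226 kb), held 6 of the former and 19 of the latter. Only 2 co-bound regions were intragenic, both in intron 6, at 44683189 to 44683537 (V$BRNF) and 44697419 to 44697732 (V$BRNF and 1 RBS). Near the upstream neighbour Rnf145, an E3 ubiquitin ligase gene, 1 more lay in that gene's body at 44520125 to 44520354, with 1 RBS and V$BRNF. Its centre was 797 bp from an Rnf145 TSS, and so at a promoter of that gene.

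Most Ebf1 co-bound regions lay far downstream, between Ebf1 and Clint1, which encodes a clathrin-interacting adaptor. The 3 isolated ones were at 45095368 to 45095781 (478 kb from the TSS), 45154605 to 45154949 (537 kb) and 45271215 to 45271535 (654 kb). All of these held both RBS and V$BRNF. The last had 4 RBS, and the middle one also held TTAATGA and ATTAAT.

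A further stretch was picked as the 200 kb window with the most co-bound regions in the domain. From its first to its last peak it covered 161 kb, 45396157 to 45557185. It held 9 Runx3-list peaks and 14 Brn3a-list peaks that made 8 co-bound regions. Of these 8, the region at 45396157 to 45396421 held neither motif, and those at 45455288 to 45455577, 45491586 to 45491835, 45508286 to 45508888 and 45515220 to 45515640 held V$BRNF without RBS. The region at 45539560 to 45539828 held 1 RBS without V$BRNF, and those at 45524795 to 45525552 and 45556781 to 45557185 held both. Here lay the widest peaks of the locus.

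The widest Runx3-list peak, of 758 bp at 45524795 to 45525552, also had the most RBS (5), and the widest Brn3a-list peak measured 603 bp at 45508286 to 45508888. Every peak of this stretch was closer to a Clint1 TSS than to that of Ebf1. Of the 15 co-bound regions in the Ebf1 domain, 9 were nearest to Clint1, 5 to Ebf1 and 1 to Rnf145, and 11 also lay in the Clint1 domain. By nearest TSS alone Ebf1 kept 13 Runx3-list and 36 Brn3a-list peaks. Which gene the distal regions act on was not measured.

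Ebf2 spans 67233292 to 67430918 on chromosome 14 (plus strand, 198 kb). Intron 7, which makes up 63.1% of the gene, held 4 of the 8 Runx3-list and 16 of the 19 Brn3a-list peaks within the gene. The 20 kb window of the domain with the most Brn3a-list peaks lay in this intron, at 67298957 to 67318344 (19.4 kb). It held 11 of them and 1 Runx3-list peak. It was picked for Brn3a-list peaks alone, so its counts do not compare the lists. Intron 7 also held 3 of the 6 co-bound regions.

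These were at 67300508 to 67300781 (V$BRNF), 67334320 to 67334708 (both motifs) and 67344745 to 67345012 (RBS). The second contains the widest Brn3a-list peak of Ebf2, of 389 bp. A co-bound region at 67414339 to 67414581 had its centre in coding exon 15, with V$BRNF, no RBS and 2 CCCNNGGG words. The last, at 67541274 to 67541638 downstream of the gene, had 1 RBS and contained the widest Runx3-list peak (347 bp).

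No Runx3-list peak of Ebf2 held more than 1 RBS, and 7 of 13 held that 1. The domain is shared with Cdca2, which encodes a chromosome-associated regulator of protein phosphatase, and with Ppp2r2a, a regulatory subunit of protein phosphatase 2A. Of the 6 co-bound regions, 5 also lay in the Cdca2 domain, yet 5 were nearest to an Ebf2 TSS.

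Ebf3 spans 137193673 to 137314445 on chromosome 7 (minus strand, 121 kb). Intron 7, with 59.2% of the gene, held 13 of the 16 Brn3a-list peaks and 2 of the 3 Runx3-list peaks within the gene, and 2 of the 5 co-bound regions of the domain. Those regions, at 137241351 to 137241875 (1 RBS) and 137244882 to 137245416 (1 RBS and V$BRNF), contain the 525 bp and 535 bp Brn3a-list peaks, the widest of the gene. They lay in the 20 kb window picked for the most Brn3a-list peaks of the domain, which held 8 in 17.9 kb.

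Downstream, a co-bound region without either motif lay at 137170476 to 137170832. Another was in the body of Mgmt, a gene for a DNA repair methyltransferase, at 137085805 to 137086210. It held 2 RBS, the most at Ebf3, and V$BRNF, and contained the widest Runx3-list peak (367 bp). Of the peaks of the Ebf3 domain, 3 Runx3-list and 8 Brn3a-list peaks were in the Mgmt body. All 5 co-bound regions were nearest to an Ebf3 TSS, and 4 also lay in the Mgmt domain.

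The deposited motif columns allowed the peaks to be compared by sequence. RBS were present in 28 of the 47 Runx3-list peaks (59.6%, 45.3% to 72.4%), against 61.3% of the list. V$BRNF was present in 80 of the 125 Brn3a-list peaks (64.0%, 55.3% to 71.9%), against 54.2%. The RBS share was close to that of the whole list, while the V$BRNF interval lay just above the list's share. Among Runx3-list peaks away from promoters, RBS were in 59.5% (44.5% to 73.0%), against 65.3% of the list. Among those at least as wide as the list's median they were in 66.7% (47.8% to 81.4%), against 72.1%. Both intervals included the list's share.

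By gene, V$BRNF was in 44 of 62 peaks at Ebf1 (71.0%), 18 of 32 at Ebf2 (56.2%) and 18 of 31 at Ebf3 (58.1%), and these intervals overlap. Only 5 of the 125 peaks were at a promoter, where the motif is rarer. Among distal peaks alone the shares were 65.0% (56.1% to 72.9%) at the Ebf genes and 60.1% over the list, so the interval then included the list's share. The Ebf peaks were also wider, with a median of 200 bp against 171 bp. Among peaks at least as wide as the list's median, V$BRNF was in 77.0% (66.3% to 85.1%) and in 70.2% of all.

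**Figure D3:**
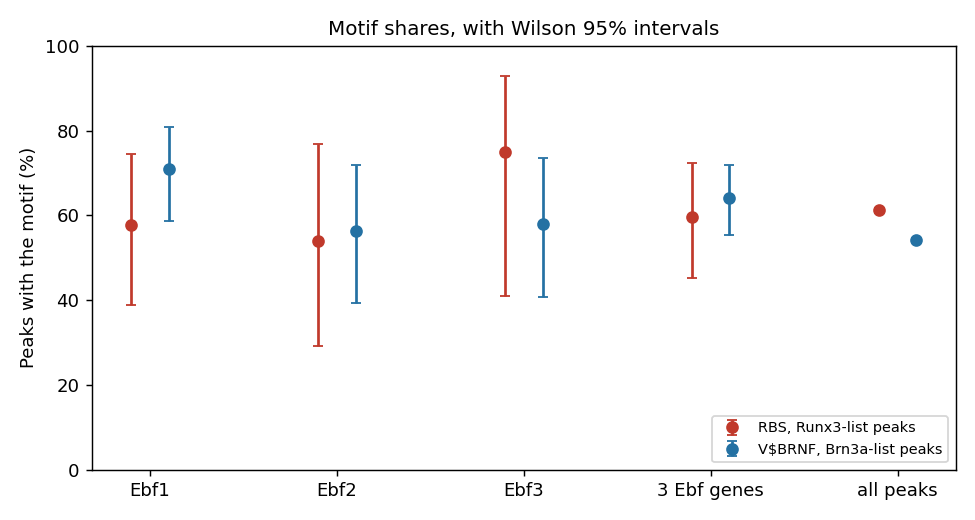
Percent of Runx3-list peaks with RBS (red) and of Brn3a-list peaks with V$BRNF (blue) at each Ebf gene, at the 3 together and over all peaks of the list, with Wilson 95% intervals as bars. The V$BRNF share was 64.0% at the 3 genes and 54.2% over all peaks, and the RBS shares were 59.6% and 61.3%.

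Of the co-bound regions at the Ebf genes, 42.3% held the motifs of both factors, with 53.3% at Ebf1, 16.7% at Ebf2 and 40.0% at Ebf3. No interval was computed for these shares. Of the 26 regions, 11 had RBS and V$BRNF, 4 had RBS alone, 7 had V$BRNF alone and 4 had neither. Over the 8343 co-bound regions of the genome these classes took 29.2%, 26.9%, 18.6% and 25.4%. Ebf1 supplied 8 of the 11 regions with both, Ebf2 supplied 1 and Ebf3 supplied 2. At Ebf1, 13 of 15 co-bound Brn3a-list peaks had V$BRNF (86.7%, 62.1% to 96.3%), at Ebf2 3 of 6 (50.0%, 18.8% to 81.2%) and at Ebf3 2 of 5 (40.0%, 11.8% to 76.9%). For the 3 genes together it was 18 of 26 (69.2%, 50.0% to 83.5%), against 47.5% of all co-bound Brn3a-list peaks. The intervals of Ebf2 and Ebf3 alone included 47.5%. The co-bound Brn3a-list peaks were also wider at the Ebf genes, with a median of 310 bp against 234 bp. This share was not recomputed for wider or distal co-bound peaks.

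Short words were counted in 200 bp around each peak centre. In Brn3a-list peaks of the Ebf genes TTAATGA was found in 15 of 125 (12.0%, 7.41% to 18.9%), against 9.06% of the list. ATTAAT was found in 25 (20.0%, 13.9% to 27.9%), against 16.3%, and a RUNX word in 39 (31.2%, 23.7% to 39.8%), against 33.5%. All 3 intervals included the share of the list.

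The EBF-type word CCCNNGGG was in 7 of 125 Brn3a-list windows (5.60%, 2.74% to 11.1%), against 10.9%, and in 5 of 47 Runx3-list windows (10.6%, 4.63% to 22.6%), against 13.6%. In the Runx3-list windows a RUNX word was found in 26 of 47 (55.3%, 41.2% to 68.6%), against 60.9%. These intervals, too, included the list's share. Among the 40 RUNX words in Runx3-list peaks of the Ebf genes, TGTGGT made up 32.5% and TGCGGT 27.5%, against 45.4% and 14.6% over the list. Ebf1 supplied 26 of these words, and Ebf2 and Ebf3 supplied 7 each. TGTGGT made up 26.9%, 42.9% and 42.9% at the 3 genes in that order, and TGCGGT 30.8%, 28.6% and 14.3%. No interval is given, since several words can come from 1 peak.

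Genes linked to Ebf function gave mixed counts. Of 23 such genes, 7 had a Runx3-list promoter peak, 9 a Brn3a-list promoter peak, 5 both, and 13 a co-bound region. The shares over all protein-coding genes were 36.0%, 20.6%, 14.7% and 31.9%, in that order. Runx3-list promoter peaks were thus no more frequent in this list, while Brn3a-list promoter peaks and co-bound regions were more frequent. The Brn3a-list promoter peaks were at 6 of 7 bHLH genes, 2 of 2 zinc-finger partners and 1 of 3 adipocyte genes. None of the B cell or olfactory genes had one. These differences were not tested. Zfp521 and Zfp423, zinc-finger partners of Ebf proteins, had 43 and 24 Brn3a-list peaks, with 8 co-bound regions at Zfp521 and 1 at Zfp423. Both had a Brn3a-list promoter peak, and Zfp521 also a Runx3-list one. Ebf4, the remaining family member, had 1 Runx3-list and 3 Brn3a-list peaks, none at its promoter, and 1 co-bound region.

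Among the 7 bHLH genes, Neurod1, Neurog2, Tcf3 and Tcf4, which encode regulators of neuronal differentiation or their dimer partners, had promoter peaks of both lists. Neurog1 and Tcf12 had Brn3a-list promoter peaks alone. Tcf4 had the most peaks of this group, 11 and 22. Among the 7 B cell genes, Foxo1, which encodes a forkhead factor, was the 1 with a promoter peak, of the Runx3 list. Cebpa, an adipocyte factor gene, had a Brn3a-list promoter peak, and Omp, an olfactory neuron gene, a Runx3-list one.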

How the data were processed

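CUT&RUN libraries of E12.5 TrkC neurons were analysed from consensus peak lists. Per the labels, the authors used cutadapt, Bowtie and MACS2 on GRCm38 (mm10), and their versions and settings are not given in the sources used here. Each of the deposited lists gives positions and 1 motif score per peak, made by the authors: the number of RBS (Runx3 list) or presence of V$BRNF (Brn3a list). Counting the RUNX words on both strands gave the deposited RBS score in 25883 of 25883 peaks. V$BRNF was taken as deposited. The table named for H3K27Ac equals the Runx3 table in 25888 of 25888 lines and was not used. NRS values were not analysed here.

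Positions were read as 1-based, and mitochondrial peaks were left out. Genes came from GENCODE M21, sequences from RefSeq GRCm38.p6 (Ebf1 and Ebf3 had RefSeq promoters, and only that of Ebf3 is shown). Python 3.11.15, pandas 2.3.3, scipy 1.17.1, pysam 0.24.0 and samtools 1.23.1 were used, and the overlap, domain and word searches were tested on simulated data. Peaks of different lists were co-bound if they shared at least 1 bp.

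Named genes were the members, their domain neighbours, the 3 genes with the most similar counts, and Ebf-linked genes with a promoter peak or the most peaks. One result of that list is not reported here. Named regions were all co-bound regions and the nearest, widest and most RBS-rich peaks. Members and lists were chosen with earlier results of these data known. Alternatives changed the reach, neighbours, assignment, peak width, overlap, promoter and word window.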

Additional observations from a re-analysis of the deposited data

How the results depend on the processing

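Of 87 recomputed values of 25 results, 49 stayed within 1.5 times the count, or within the interval of the share, and 38 did not. For Ebf1, the Runx3-list peaks, Brn3a-list peaks and co-bound regions fell to 13, 35 and 5 with a reach of 500 kb, to 9, 10 and 4 with 100 kb, to 1, 2 and 1 with neighbours of any gene type, to 13, 36 and 5 by nearest TSS, and to 17, 37 and 9 among wider peaks. For Ebf2 they were 4, 15 and 2 with 100 kb, 2, 2 and 1 with neighbours of any gene type, and Runx3-list and Brn3a-list peaks were 8 and 21 by nearest TSS and 6 and 17 among wider peaks. For Ebf3 they were 3, 18 and 3 with 100 kb, 3, 16 and 3 with neighbours of any gene type, and 4, 20 and 3 among wider peaks. Runx3-list peaks of Ebf3 were 5 without those in neighbouring gene bodies. Requiring 50% of each peak to be shared left 9 co-bound regions at Ebf1 and 2 at Ebf3. Fewer bases, genes or peaks enter each of these counts by construction. The V$BRNF share was 77.0% among wider peaks. Promoter peaks within 2000 bp, and words in the whole peak, stayed within those limits.

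No paired analysis was possible because the lists are pooled over libraries, and leaving out single replicates could not be run for the same reason. Depth, peak heights and serum background were not analysed here.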

Other observations

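Beyond the end of the Ebf1 domain, the 230 kb up to the Clint1 window held 2 Runx3-list peaks, 6 Brn3a-list peaks and 2 co-bound regions. The 161 kb stretch inside the domain was picked for its many co-bound regions, so no comparison with it is drawn.

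The genes whose counts of Runx3-only peaks, Brn3a-only peaks and co-bound regions were nearest to those of each Ebf gene, by Euclidean distance of log2(count + 1) among 21911 genes, were Clic4, Clint1 and Sox11 for Ebf1 (distances 0.43, 0.52 and 0.55), Slc7a1, Fam49a and Clvs1 for Ebf2 (0.26, 0.31 and 0.32) and Gpc6, Hsbp1 and Helb for Ebf3 (0.33, 0.34 and 0.40). Clint1 shares 11 co-bound regions with Ebf1. Clic4 had 58 Brn3a-only peaks in 231 kb and lies next to Runx3, whose domain held 231 Brn3a-list peaks. The BAC transgene carries Runx3 sequence, and its part in the counts at Runx3 and Clic4 was not tested.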
